A study of Arabidopsis thaliana with 4 samples.

Results

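The genes described here are those that the plastid genome of Arabidopsis thaliana encodes for its own ribosome, its own RNA polymerase and a few further functions outside the photosynthetic complexes. Members were taken by name, from probe sets that the annotation of the array assigns to 1 gene of the plastid genome with a symbol starting in rps, rpl, rpo or ycf, or to matK, clpP, accD, ccsA or cemA. Where a gene had several such probe sets, the one with the highest mean was kept. This gave 32 genes, out of 13363 genes named by a probe set of 1 gene and 22746 probe sets tested. Of these, 10 encode proteins of the small ribosomal subunit, 9 proteins of the large subunit, 4 subunits of the polymerase and 9 other proteins. The series list names 28 of the 32, and ycf1, ycf2, ycf3 and ycf4 were added because the rule takes them.

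The RNA came from green tissue, with roots excluded, of seedlings aged 20 days. Affymetrix ATH1 arrays were used, with 2 arrays for wild type plants of the Ler accession and 2 for gl3 egl3 double mutants, which make no leaf trichomes. GL3 and EGL3 encode basic helix-loop-helix transcription factors that start trichome development. Age and number of arrays are as the labels give them, while the study's text describes younger seedlings and more replicates for this comparison. The sample titles of the mutant name no accession and no allele, so that an accession difference between the groups, if there was one, cannot be told apart from the genotype.

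The plastid genome is a small bacterial-type genome present in many copies per plastid, and its genes are largely arranged in units that are transcribed together. A plastid-encoded polymerase of bacterial type, built from the products of rpoA, rpoB, rpoC1 and rpoC2, transcribes most photosynthesis genes, while a phage-type polymerase imported from the cytosol transcribes the rpoB unit and others. The plastid ribosome is assembled from proteins of both genomes, and the transcripts are spliced, edited and trimmed by many nuclear-encoded proteins. In green tissue, most of this activity serves the making and upkeep of the photosynthetic complexes in leaf mesophyll.

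All values are log2 expression values as deposited, and every difference is gl3 egl3 minus wild type, so that a positive one means a higher value in the mutant. Levels of different genes are not compared, since each probe set has its own response. Median values over all probe sets were 4.99 and 4.95 on the gl3 egl3 arrays and 4.96 and 4.92 on the wild type arrays. Of the 15 listed markers of green tissue, the 2 measured were near the top of the scale in all arrays, RCA at 12.48 to 12.61 and LHCB4.1 at 13.24 to 13.39. Among 6 root markers, 5 were measured. The root hair expansin gene EXPA7 was near the bottom of the scale, between 2.15 and 2.16, and AT5G66390 between 2.26 and 2.28. AT5G17820 was at 2.19 to 2.20 on 3 arrays and at 3.38 on the second gl3 egl3 array, and AT4G00670 between 3.65 and 3.78. PYK10, a beta-glucosidase gene of roots and seedlings, was at 10.04 and 11.04 in the mutant and at 10.75 and 10.64 in wild type. Of 6 markers of mature trichomes, only 2 were measured. SIM was at 6.37 and 6.63 in the mutant and 6.35 and 6.35 in wild type. TRY was between 2.36 and 2.48 on every array, near the bottom of the scale. Whether these 2 follow the loss of trichomes was not tested. Whether root or trichome RNA had a part in the values below was not tested.

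The transcripts of the plastid genes were slightly higher in gl3 egl3 than in wild type, by a median log2 difference of 0.17 over the 32 genes, beside 0.01 over all probe sets and 0.04 over the 4947 probe sets with a mean of 8 or more, 30 of the members being among these. As deposited, 29 members were higher in the mutant and 3, namely rps14, rpl32 and cemA, were lower. Over all probe sets 62.8% were higher, and over those with a mean of 8 or more 56.6% were. This count moved with the scaling of the arrays. With quantile normalization 25 members were higher (78.1%), with each array centred on its median 25 (78.1%), and with centring on the probe sets with a mean of 8 or more 24 (75%), where 51.1%, 51% and 50.2% of the probe sets with a mean of 8 or more were higher. The differences were small throughout, ranging from -0.20 for rps14 to 0.60 for rps16, and none reached 1 on the log2 scale.

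No member passed an adjusted p of 0.05 in limma, and neither did any other probe set (0% called), the smallest adjusted p being 0.225 among the members and 0.0769 over all. At an unadjusted p under 0.05, 8 members were higher in gl3 egl3, namely rps19, ycf4, rpl16, rpoA, rpl33, rps16, matK and rpl20, and none was lower. The same held for 5.58% of all probe sets in the higher direction and 3.72% in the lower, and for 9.12% in the higher direction among those with a mean of 8 or more. Without the second gl3 egl3 array or without the second wild type array, the 8 became 5. The count was also smaller under other fits, with 4 members when limma was given an intensity trend and robust variances and 2 when probe sets with a mean under 5 were left out before the fit. In whole tissue, fewer cells of a type and less RNA per cell cannot be told apart, and 2 arrays per group limit the precision of every value.

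Both gl3 egl3 arrays lay above both wild type arrays for 14 of the 32 genes, and below both for none. Such a separation was found for 38.1% of all probe sets upwards and 12.7% downwards. Over the probe sets with a mean of 8 or more it was found for 27.7% upwards and 18.5% downwards, beside 12 and 0 of the 30 members in that range. The remaining 18 members overlapped between the groups as deposited. The 14 became 12 with quantile normalization and 10 with each array centred on its median. With centring on the probe sets with a mean of 8 or more they were 12. The shares over all probe sets were not computed under these scalings. Taking each gene's deviation from its own mean over the 4 arrays, the median over the members was 0.03 and 0.10 on the gl3 egl3 arrays and -0.07 and -0.10 on the wild type arrays. The second gl3 egl3 array was the highest of the 4 for 16 members and the first for 11, while a wild type array was the highest for 5 in all, 4 and 1. The second wild type array was the lowest for 13 members and the first for 11. Which array was highest or lowest was not counted over all probe sets, so these counts have no background. Many members are transcribed together, so that they are not independent counts.

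**Figure D1:**
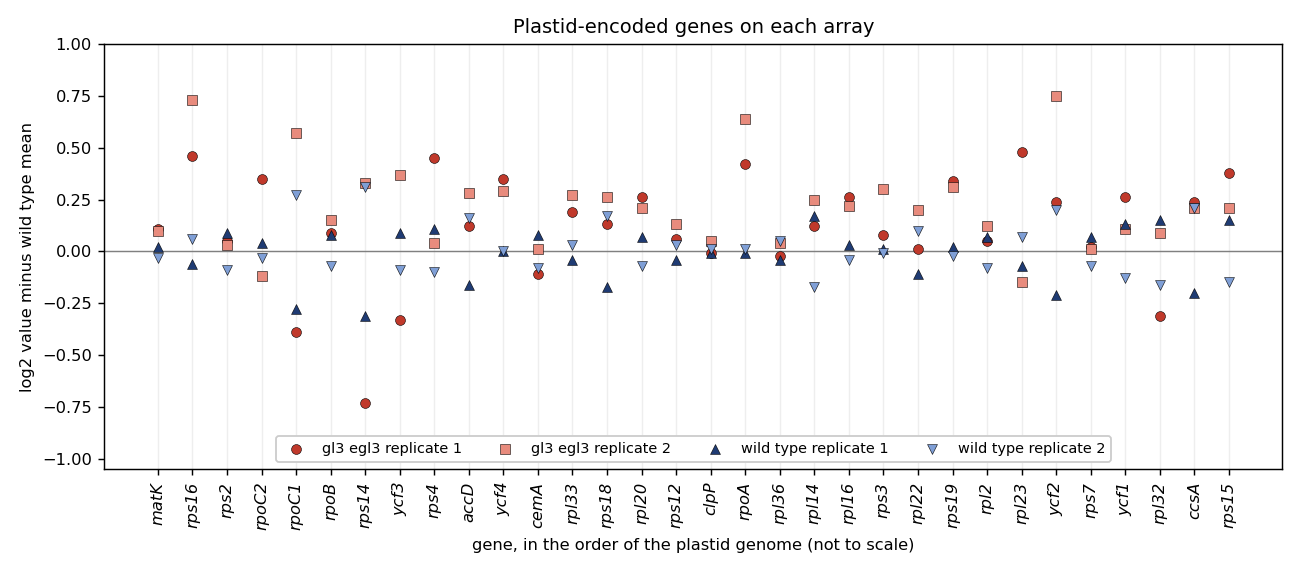
Log2 value of each of the 32 plastid genes on each of the 4 arrays, drawn as the distance from that gene's wild type mean (vertical axis, log2 units), with the genes in the order of the plastid genome along the horizontal axis, which is not to scale. Red symbols are the 2 gl3 egl3 arrays and blue triangles the 2 wild type arrays; most red symbols lie a little above 0, and rpoC1, rps14, ycf3 and rpl23 show wide gaps between the arrays of one group.

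The small ribosomal subunit binds the messenger and holds the decoding site. Its 10 plastid genes had a median difference of 0.20, with 9 higher and rps14 lower as deposited, of which rps7 under all other scalings and rps2 under quantile normalization and the centring on probe sets with a mean of 8 or more were just below 0. The arrays of the groups did not overlap for 5 of the 10, all upwards. Over all probe sets this held for 38.1%, and for 27.7% of those with a mean of 8 or more. Without the second gl3 egl3 array the median of the 10 genes was 0.11. The largest difference of any member was that of rps16, an intron-containing gene for ribosomal protein S16. Its values were 9.02 and 9.29 in the mutant and 8.50 and 8.62 in wild type. Each mutant array was thus above each wild type array, and the difference of 0.60 (SE 0.127, 1.51-fold) had a 95% interval of 0.16 to 1.04 and a limma adjusted p of 0.424. The gene rps19 encodes S19, a protein of the head of the subunit. It was at 10.29 and 10.26 in the mutant and at 9.97 and 9.93 in wild type. Replicates were almost equal here, so that a difference of only 0.33 (SE 0.0238, 95% interval 0.25 to 0.41) had the smallest p among the members, 0.00161 before and 0.225 after adjustment in limma. For rps15, whose protein belongs to the platform of the subunit, the values were 10.69 and 10.52 in the mutant and 10.46 and 10.16 in wild type. The groups did not overlap, and the difference of 0.30 (SE 0.15, limma adjusted p 0.759) exceeded the gap between the wild type arrays only in the decimals beyond those printed. It ranged from 0.15 to 0.45 with 1 array left out.

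The other genes of the small subunit differed less or varied more between replicates. For rps4, encoding an early-binding assembly protein, the difference was 0.24 at a mean level of 11.81, with a gap of 0.41 between the mutant arrays. It was 0.04 without the first of these arrays and 0.45 without the second. The genes rps18 (0.20, mean level 8.27) and rps3 (0.19, mean level 11.1) followed, of which rps3 had no overlap between the groups. With 1 array left out, rps18 ranged from 0.03 (without the first wild type array) to 0.37 (without the second), and rps3 from 0.08 to 0.30. Both rps2, at a mean level of 11.16, and rps7, at 12.76, differed by 0.04 and 0.02, within the spread of the wild type arrays. The protein of rps7 is an assembly protein of the subunit head. The gene rps14 had the widest gap between replicates of all members. It was at 8.26 and 9.32 in the mutant and at 8.68 and 9.30 in Ler, a difference of -0.20 (SE 0.535) with overlapping groups. Without the first gl3 egl3 array the difference was 0.34, and without the second wild type array it was 0.11.

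The gene rps12 encodes S12, a protein of the decoding site, and is unusual in that its transcript is joined by trans-splicing from separately transcribed pieces. It was the only member with a further probe set. On the brighter one, the values were 11.38 and 11.45 in the mutant and 11.28 and 11.35 in Ler, a difference of 0.10 (SE 0.0431) without overlap. The second gave 9.87 and 10.32 in the mutant and 10.03 and 10.32 in Ler, a difference of -0.08 (SE 0.234). The probe sets thus differed in sign, and neither difference passed the limma threshold (adjusted p 0.699 and 0.953).

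The large subunit forms peptide bonds and holds the exit tunnel. Its 9 plastid genes had a median difference of 0.17, with 8 higher and rpl32 lower as deposited, of which rpl36 was below 0 under both centrings. The median was 0.11 without the second gl3 egl3 array. In 3 of the 9 genes the groups did not overlap, all upwards, and these had nearly the same difference. The upward share was 38.1% over all probe sets and 27.7% over those with a mean of 8 or more. The gene rpl16 encodes a protein near the site where transfer RNAs enter, and it was at 11.22 and 11.18 in the mutant against 10.99 and 10.92 in wild type (difference 0.24, SE 0.0373, limma adjusted p 0.32). For rpl20, encoding an assembly protein of the subunit, the arrays read 11.44 and 11.39 in the mutant against 11.25 and 11.11 in wild type (difference 0.24, SE 0.0645, limma adjusted p 0.511). The third, rpl33, whose protein is dispensable in tobacco under normal growth, read 10.95 and 11.03 in the mutant against 10.72 and 10.79 in wild type (difference 0.23, SE 0.0483, limma adjusted p 0.416). In all 3, the difference was larger than the gap between the arrays of either group.

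Of the rest of the large subunit, rpl14 (0.18), rpl23 (0.17), rpl22 (0.11), rpl2 (0.09) and rpl36 (0.01) had positive differences and overlapping groups. The value of rpl14 was 0.35 without the first wild type array and 0.01 without the second, and with 1 array left out rpl22 ranged from 0.0017 to 0.21 and rpl2 from 0.02 to 0.16. The gene rpl2 encodes a protein next to the peptidyl transferase centre, and rpl23 one at the mouth of the exit tunnel. For rpl23 the mutant arrays lay on either side of the wild type, at 10.78 and 10.15 against 10.23 and 10.37, and without the first of them its difference was -0.15. The gene rpl36, for a very small protein, had one of the narrowest differences at a mean level of 12.65, with a 95% interval of -0.16 to 0.18. The gene rpl32 was at 10.38 and 10.78 in the mutant and at 10.84 and 10.53 in wild type (difference -0.11, SE 0.219), with overlapping groups.

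All 4 genes of the polymerase core were higher in gl3 egl3 as deposited, with a median of 0.11, and rpoA stood apart from the other 3. The gene rpoA encodes the alpha subunit, around which the core is assembled. It read 11.04 and 11.26 in the mutant and 10.61 and 10.63 in wild type. The mutant arrays were both above the wild type arrays, by a difference of 0.53 (SE 0.0964, 1.45-fold, 95% interval 0.20 to 0.86), which exceeded the larger gap between replicates, 0.22, and had a limma p of 0.0166 before and 0.375 after adjustment. The gene rpoB, for the beta subunit, was low on this array, at 4.49 and 4.55 in the mutant and 4.48 and 4.33 in wild type. Its groups did not overlap, with a difference of 0.12 (SE 0.0728, limma adjusted p 0.793) that was smaller than the gap of 0.15 in wild type and ranged from 0.04 to 0.20 with 1 array left out.

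The genes rpoC1 and rpoC2 encode the subunits into which the beta prime subunit of bacteria is divided in plastids. For rpoC2, the values were 9.96 and 9.49 in the mutant and 9.65 and 9.58 in wild type (difference 0.11, SE 0.206, limma adjusted p 0.922). The gene rpoC1 was at 8.17 and 9.13 in the mutant and at 8.28 and 8.83 in wild type (difference 0.10, SE 0.482). In both, the mutant arrays enclosed the wild type arrays, and leaving out 1 array turned the sign. The difference of rpoC2 was -0.12 without the first gl3 egl3 array, and that of rpoC1 was -0.38 without the second. The median of the 4 polymerase genes ranged from 0.17 to 0.36 when each array was left out in turn.

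**Figure D2:**
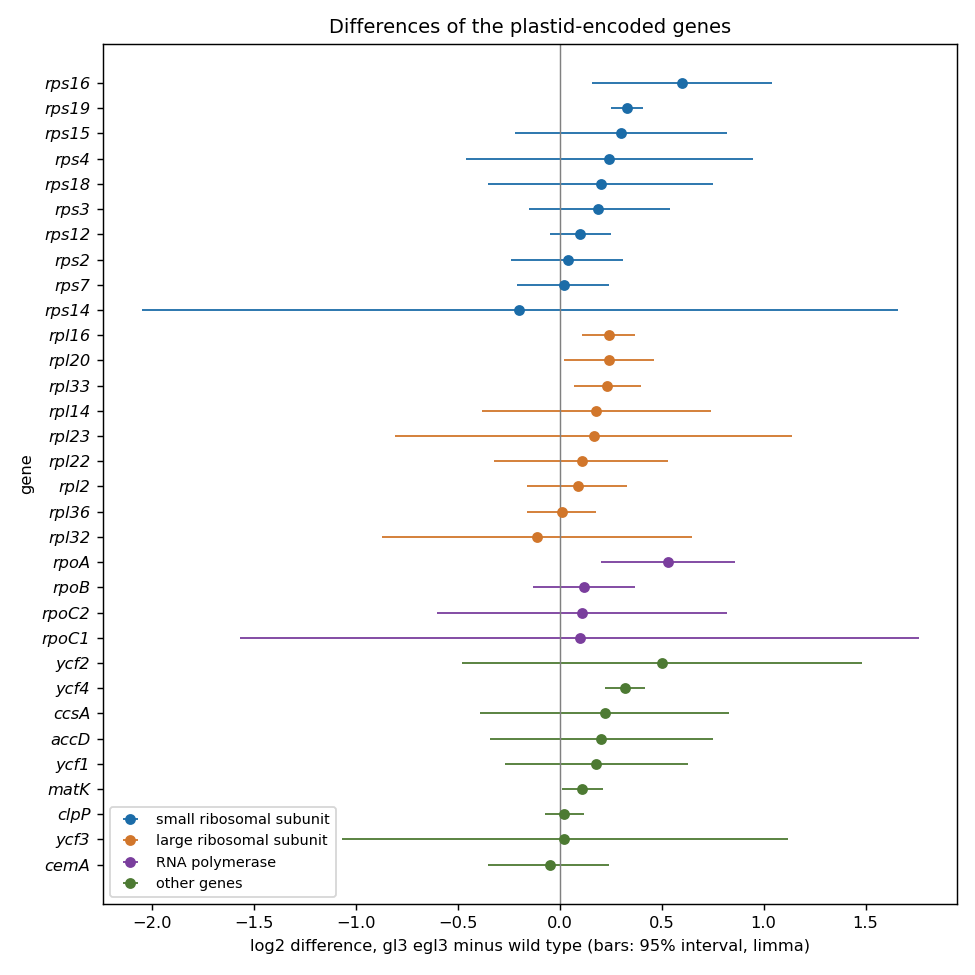
Log2 difference between gl3 egl3 and wild type (horizontal axis) for each of the 32 plastid genes (vertical axis), grouped by colour into small ribosomal subunit, large ribosomal subunit, RNA polymerase and other genes. Points are differences of means of 2 arrays per group and bars are 95% intervals from limma; the intervals of rps16, rps19, rpl16, rpl20, rpl33, rpoA, ycf4 and matK lie above 0 before any adjustment for the number of probe sets.

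The 9 other genes had a median of 0.18, with 8 higher and cemA lower as deposited, of which clpP and ycf3 were just below 0 under every other scaling. For 4 of the 9 the groups did not overlap, all upwards, beside 38.1% of all probe sets. The median was 0.08 without the second wild type array, 0.12 without either the first wild type or the second gl3 egl3 array, and 0.11 without the probe sets that match several places. The gene ycf4 encodes an assembly factor of photosystem I. It was at 10.56 and 10.50 in the mutant and at 10.21 and 10.21 in wild type, and the arrays within a group were close. The difference was 0.32 (SE 0.0293, 95% interval 0.22 to 0.42), with a limma p of 0.00302 before and 0.237 after adjustment. For ycf3, which encodes another assembly factor of the same photosystem, the difference was 0.02, with the mutant arrays at 10.16 and 10.86 on either side of the wild type arrays at 10.58 and 10.40. Its mean thus hid a gap of 0.70 between the mutant arrays.

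The long reading frame ycf2, which is essential in tobacco, had a low signal of 5.84 and 6.35 in the mutant and 5.39 and 5.80 in wild type. Its difference of 0.50 was the third largest of the members, but it had an SE of 0.282, and the limma adjusted p was 0.793. The lower mutant array was only just above the higher wild type array, and with 1 array left out the difference ranged from 0.25 to 0.75. The gene ycf1, likewise a long and essential frame, differed by 0.18 with overlap (0.05 to 0.31 with 1 array left out). Together the 4 ycf genes had a median of 0.25, and without them the median of the members was 0.14. Of these 28, 25 were higher, 7 were at an unadjusted p under 0.05 in limma and 12 were without overlap, all upwards. The upward shares over all probe sets were 62.8%, 5.58% and 38.1% in that order.

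The gene ccsA encodes a protein of haem attachment to c-type cytochromes. It was at 11.37 and 11.34 in the mutant and at 10.93 and 11.34 in wild type. The groups were separated only in the decimals beyond those printed, since the second wild type array was level with the lower mutant array (difference 0.22, SE 0.177, limma adjusted p 0.793). Without the first wild type array the difference was 0.02, and without the second it was 0.42. The gene matK lies in the intron of a lysine transfer RNA gene and encodes a maturase for group II introns. Its 4 values lay close together, at 10.66 and 10.65 in the mutant and 10.57 and 10.52 in wild type, giving a difference of 0.11 (SE 0.0291, limma p 0.0395 before and 0.493 after adjustment).

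Among the remaining members, accD, the plastid-encoded subunit of acetyl-CoA carboxylase in fatty acid synthesis, differed by 0.20 at a mean level of 9.51, with overlap. Its difference was 0.04 without the first wild type array and 0.36 without the second. The gene clpP, for the catalytic core of the Clp protease, differed by 0.02 at 11.76 with a 95% interval of -0.07 to 0.12. The gene cemA, for a protein of the inner envelope membrane, differed by -0.05 at 11.89 with an interval of -0.35 to 0.24. The groups overlapped for both.

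The spread between replicates set what could be seen. The median gap between the arrays of a group was 0.13 in gl3 egl3 and 0.15 in wild type over the members, beside 0.17 and 0.18 over the probe sets with a mean of 8 or more. The difference exceeded the larger of both gaps in 10 of the 32 genes, or 31.2%, beside 25.9% of all probe sets and 32.3% of those with a mean of 8 or more. By this measure, the share among the members was close to that of probe sets of like level. Members with wide gaps, such as rps14, rpoC1, ycf3 and rpl23, had intervals extending far to both sides of 0. These intervals took in differences of the size seen in rps16 or rpoA, which did not pass the adjusted threshold either.

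**Figure D3:**
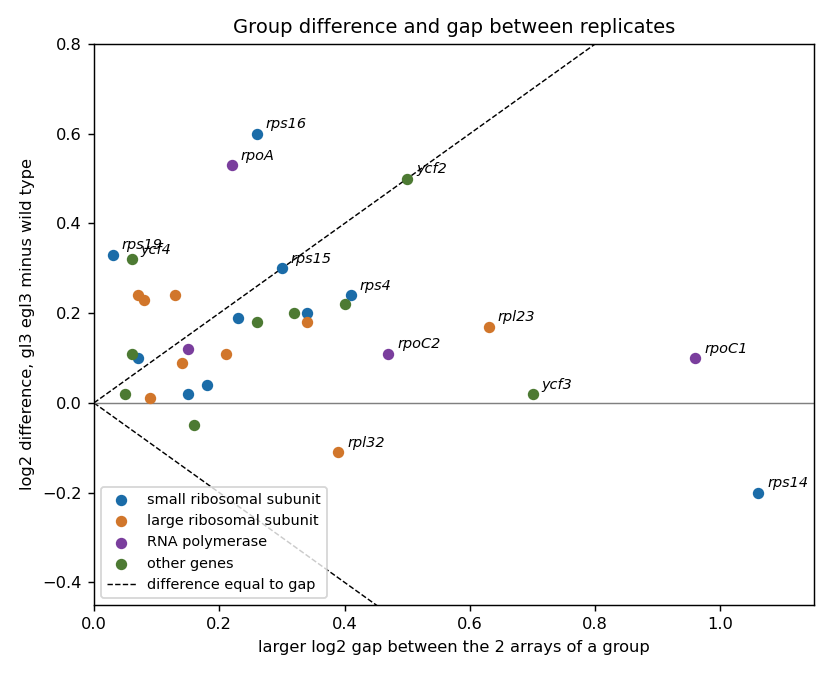
Log2 difference between gl3 egl3 and wild type (vertical axis) against the larger of the gaps between the 2 arrays of a group (horizontal axis, log2 units) for each of the 32 plastid genes, coloured by class. Dashed lines mark a difference equal to the gap; 10 genes lie outside them, all on the positive side, with rps16 and rpoA the highest.

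The genes were then read along the plastid genome, using only the order of neighbours in the RefSeq annotation of assembly TAIR10.1. In the unit of ribosomal protein genes that ends in rpoA and has the order of the bacterial S10 operon, all 9 measured genes were higher as deposited, and all but rpl36 under both centrings, with a median of 0.18 and a range of 0.01 to 0.53. Its extremes were neighbours in the list of measured genes, rpoA at 0.53 and rpl36 at 0.01. The neighbours rps2, rpoC2, rpoC1 and rpoB were read as 1 group, with a promoter of the phage-type polymerase at rpoB. Whether rps2 is transcribed from that promoter was not tested. The 4 differences of this group were 0.04 to 0.12 as deposited, with a median of 0.10. Of these, rps2 was just below 0 under quantile normalization and under centring on the brighter probe sets. The SE was 0.482 for rpoC1 and 0.206 for rpoC2, so that how close the 4 differences are cannot be told. The group of accD, ycf4 and cemA ranged from -0.05 to 0.32, that of rpl20, rps12 and clpP from 0.02 to 0.24, rpl33 and rps18 were at 0.23 and 0.20, and rpl32 and ccsA at -0.11 and 0.22. The second probe set of rps12 was at -0.08, and which piece of that gene either probe set reads was not tested. The 9 members outside these units had a median of 0.18. Genes of one unit thus did not share 1 value, and how much of this is spread between arrays was not tested.

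Of the members, 7 have introns, namely rps12, rps16, rpl2, rpl16, rpoC1, clpP and ycf3. They were all higher as deposited, clpP and ycf3 not under the other scalings, with a median of 0.10 and a range of 0.02 to 0.60, a grouping made after the values were seen. In 5 members the probe sets match more than 1 place, rpl2, rpl23, ycf2, rps7 and ycf1, which the annotation lists with 2 copies each in the inverted repeat or at its border, so that the copies cannot be told apart. Leaving these probe sets out, 24 of 27 members were higher, and the count at an unadjusted p under 0.05 stayed at 8. The annotation also lists 2 copies of rps12, whose probe set was not left out here.

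The 44 plastid-encoded photosynthesis genes had a median difference of 0.11, with 35 higher (32 to 34 under the other scalings), 6 at an unadjusted p under 0.05 and 17 without overlap upwards and 1 downwards. By complex, the medians were 0.17 for photosystem I (5 genes), 0.09 for photosystem II (15), 0.27 for the cytochrome b6f complex (6), 0.09 for ATP synthase (6) and 0.10 for the NDH complex (11), and rbcL differed by -0.02. The 11 genes named from the mitochondrial genome had a median of 0.04, with 9 higher, 3 at an unadjusted p under 0.05 and 7 without overlap upwards and 1 downwards. At the low end of the scale were 3 of them, matR, nad2 and nad7. These differed by 0.04 or less and are counted among the 9 and the 7. Over all probe sets, 38.1% were without overlap upwards and 12.7% downwards. Of these probe sets 62.8% were higher, and 5.58% were higher at an unadjusted p under 0.05 in limma. The largest difference among the 11 genes, that of nad1 for a subunit of respiratory complex I, was 0.63 (SE 0.023, limma adjusted p 0.168) and larger than that of any member. The range of the photosynthesis genes, -0.69 to 0.55, took in the values of all members but rps16. The difference between these lists was not tested.

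**Figure D4:**
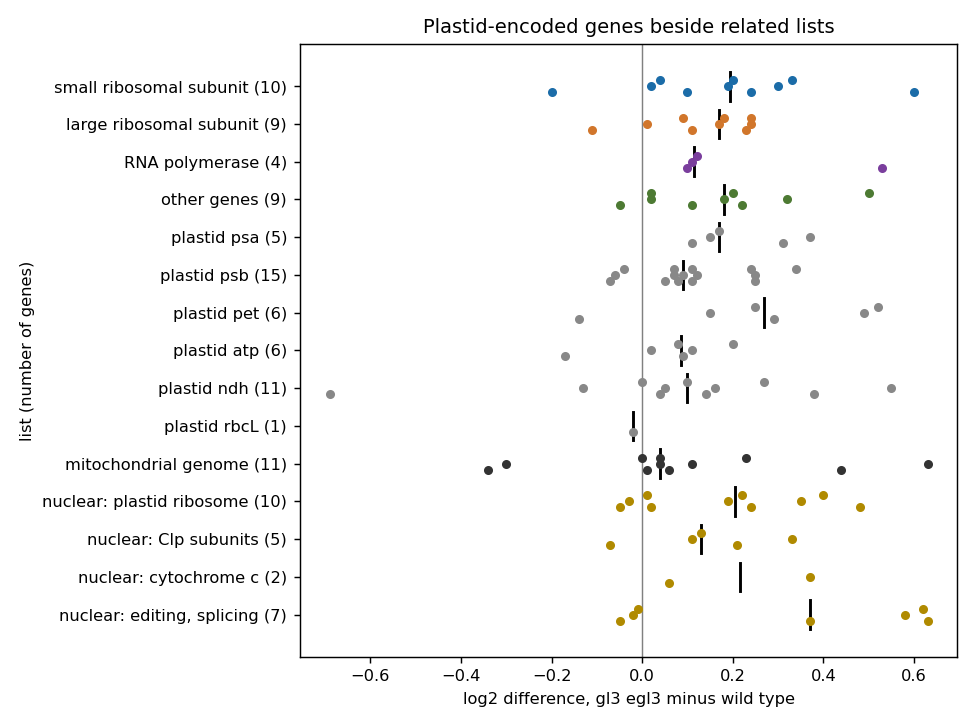
Log2 difference between gl3 egl3 and wild type (horizontal axis) of the single genes (points) of each list (vertical axis, number of genes in parentheses), with the median as a black line. The 4 classes of the 32 plastid genes are in colour, other plastid genes in light grey, mitochondrial genes in dark grey and nuclear-encoded partners in gold; the medians of the 4 classes lie between 0.11 and 0.20, among those of the other plastid lists.

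Nuclear genes whose products work with the members were listed by locus number, and only part of them had a probe set named by 1 gene. Of 39 nuclear loci listed for plastid ribosomal proteins, 10 were measured. They had a median of 0.20, with 8 higher, 2 at an unadjusted p under 0.05 and none past the adjusted threshold, and 5 were without overlap, all upwards. Over all probe sets, 62.8% were higher and 38.1% were without overlap upwards. The share higher at an unadjusted p under 0.05 in limma was 5.58%. For the 10 nuclear genes the median was 0.06 without the second gl3 egl3 array. The largest difference in this list was that of AT3G54210, at 12.25 and 12.14 in the mutant against 11.86 and 11.56 in wild type (0.48, SE 0.14, limma adjusted p 0.541). It was followed by AT1G64510, at 10.76 and 10.57 against 10.49 and 10.04 (0.40, SE 0.213, limma adjusted p 0.785). The groups did not overlap for either. The 19 ribosomal members had a median of 0.18, with 17 higher and 8 without overlap, all upwards. These values were near those of the nuclear list, and both are to be read beside the shares over all probe sets. Whether the lists differ was not tested.

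Further partners gave few measured genes. Among 14 loci listed for the Clp protease, which completes the enzyme that clpP belongs to, 5 were measured with a median of 0.13, which was 0.08 under quantile normalization or without the second wild type array. The largest difference was that of AT1G09130, at 11.41 and 11.27 in the mutant against 11.09 and 10.91 in wild type (0.33, SE 0.102, limma adjusted p 0.561). AT4G25370 followed at 9.12 and 9.21 against 8.92 and 8.97 (0.21, SE 0.0471, limma adjusted p 0.436). In both the groups did not overlap. Of 3 partners of ccsA, 2 were measured. AT1G49380 was at 9.55 and 9.50 in the mutant against 9.24 and 9.07 in wild type (difference 0.37, SE 0.077, limma adjusted p 0.416), without overlap. CcdA, which passes reducing power across the thylakoid membrane, was at 9.86 and 9.99 against 9.78 and 9.96 (difference 0.06, SE 0.0991, limma adjusted p 0.916), with overlap. For the sigma factors and phage-type polymerases, 1 of 8 was measured, AT5G15700, at 4.34 and 4.34 in the mutant against 4.33 and 4.60 in wild type (difference -0.12, SE 0.117, limma adjusted p 0.793). Without the second wild type array this difference was 0.01. None of the 13 polymerase-associated proteins and none of the 4 nuclear subunits of acetyl-CoA carboxylase had a probe set named by 1 gene.

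Of 14 factors that edit or splice plastid transcripts, 7 were measured, with a median of 0.37, 4 of them higher and 3 between -0.05 and -0.01. The largest difference was that of OTP80, a pentatricopeptide editing factor, at 3.20 and 3.76 in the mutant against 2.98 and 2.72 in wild type (0.63, SE 0.268, limma adjusted p 0.693), which is near the low end of the scale, where values are compressed. CAF1, a splicing factor of group II introns, was at 7.49 and 7.71 against 6.93 and 7.03 (0.62, SE 0.104, limma adjusted p 0.35), with no overlap. The median of this list was 0.23 with 16 added on the linear scale and 0.58 over the probe sets with a mean of 5 or more. Only CAF1, OTP81 and AT5G04810 had such a mean, so that 0.58 is the value of OTP81. The 3 genes between -0.05 and -0.01 had means of 2.23, 2.61 and 4.59. The genes of this list are few and were not tested as a list.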

How the data were processed

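The deposited values are log2 expression values, 1 for each probe set, which the authors obtained from Affymetrix ATH1 arrays with GCRMA in AffylmGUI for R. GCRMA models the background of a probe by its sequence, brings the arrays to 1 distribution and then summarises each probe set by median polish. Values under 3 are called the low end of the scale, where differences are compressed. Neither the version of GCRMA nor any further arrays normalized beside these 4 is stated in the labels or the methods. Per the labels, complementary DNA was made with a chimeric primer and amplified before labelling. The labels do not say what the primer pairs with, and plastid transcripts mostly lack long poly(A) tails, so the values may depend on how well each transcript was primed.

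The table holds 22810 probe sets, of which 64 are array controls and were not tested. The platform annotation gave 13513 of the remaining 22746 1 gene symbol, 503 several and 8730 none, and 13436 were matched to the RefSeq annotation of TAIR10.1. An unnamed probe set may still read a listed gene. No coordinates are given, since the values carry no genome build. For a member with several probe sets, that of the highest mean was used.

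Groups followed the sample titles. Differences were fitted with limma 3.58.1 in R 4.3.3 (lmFit and eBayes with default settings, two-sided, no covariates) on all 4 arrays, with Benjamini-Hochberg adjustment over the 22746 probe sets and a threshold of 0.05. This left 2 residual degrees of freedom, to which the prior added 0.623. The number of arrays limits the precision. Biologically independent material is stated in the methods of the study, but the labels do not say whether the arrays of a group came from separate plantings, so p-values measure the spread between these samples. Standard errors and 95% intervals are those of limma. The fit was tested on simulated data with known changes.

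The members and lists were chosen with earlier results of these data known, so lists are described by counts and medians, with no test. Array values, errors and adjusted p are given for the 3 members with the largest absolute difference in each of the 4 classes and for any at an unadjusted p under 0.05, and for the 2 genes of each nuclear list with the largest absolute difference. Array values of further members with wide gaps (rps14, rpoC1, ycf3, rpl23 and rpl32) were added after they were seen, as were the limit of a mean of 8, the grouping by introns and the centring on probe sets with a mean of 8 or more. The alternatives were quantile normalization, centring of each array, 16 added on the linear scale, a filter at a mean of 5, the methods' t-test, robust variances with an intensity trend, a replicate block, each array left out in turn, no probe sets of several genes, the mean over a gene's probe sets, and other thresholds.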

Additional observations from a re-analysis of the deposited data

How the results depend on the processing

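No member passed an adjusted p of 0.05 in limma under any alternative, the smallest being 0.186 (8 at an unadjusted p under 0.05 in the fit as reported). At an unadjusted p under 0.01, 2 members and 740 probe sets passed, and at an adjusted p under 0.1, 1 probe set and no member. Of 257 values of single members under alternatives that can move a difference of means, 227 kept their sign and 30 turned, read from values before rounding. The cause was not tested for any of these shifts. The 8 members at an unadjusted p under 0.05 became 5 with centred arrays, 2 with the filter at a mean of 5, 4 with an intensity trend and robust variances, 5 by the methods' t-test, and 5 to 7 with 1 array left out. With a replicate block they were 9, and 29 members stayed higher with a median of 0.17. Same-numbered arrays deviated together with a correlation of 0.134 over all probe sets and 0.214 over those with a mean of 8 or more. As there are only 2 pairs of numbers, the numbers are not shown to pair the samples. The members' median of 0.17 was 0.12 with quantile normalization, 0.13 with centring on probe sets with a mean of 8 or more (chosen after seeing the data), and 0.12 to 0.21 with 1 array left out. With 1 array left out, the medians were 0.11 to 0.20 for the large subunit, 0.11 to 0.24 for the small subunit, 0.17 to 0.36 for the polymerase, 0.08 to 0.20 for the other genes, 0.09 to 0.15 for the photosynthesis genes, 0.06 to 0.29 for the nuclear ribosomal list, 0.08 to 0.19 for the Clp list, 0.19 to 0.23 for the partners of ccsA, 0.26 to 0.47 for editing and splicing factors and -0.26 to 0.01 for AT5G15700. The median of the other genes was 0.11 without probe sets of several genes and 0.14 with centring on probe sets with a mean of 8 or more, under which the photosynthesis genes stood at 0.07. For the Clp list, quantile normalization gave 0.08, centring 0.10, and the added centring 0.09. The partners of ccsA were at 0.18, 0.18 and 0.17 in that order. Editing and splicing factors were at 0.23 with 16 added and 0.58 with the filter at a mean of 5, which keeps only CAF1, OTP81 and AT5G04810. Signs turned for clpP (-0.07 with quantile normalization, -0.01 centred, -0.02 with the added centring), rps2 (-0.02 with quantile normalization, -0.00093 with the added centring), rps7 (-0.01, -0.02 and -0.02), ycf3 (-0.02, -0.01 and -0.01) and rpl36 (-0.02 and -0.03 with the centrings). With 1 array left out, signs turned for cemA (range -0.13 to 0.02, and 0.0041 without the first gl3 egl3 array), clpP (-0.01 to 0.05), rpl23 (-0.15 to 0.48), rpl32 (-0.30 to 0.09), rpl36 (-0.04 to 0.06), rpoC1 (-0.38 to 0.57), rpoC2 (-0.12 to 0.34), rps14 (-0.73 to 0.34), rps2 (-0.05 to 0.13), rps7 (-0.06 to 0.09) and ycf3 (-0.33 to 0.38). In all, 21 members were above 0 under every alternative, with lowest values of 0.0017 for rpl22 and 0.01 for rpl14 and rps12. Several alternatives cannot move a difference of means. The same count was not made over all probe sets, of which 62.8% were above 0 as deposited, so that the 21 cannot be set against a background. The arrays give no depth, and rpoB and ycf2, with means under 8, lie where the background correction bears most on the values.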
